A study of Mus musculus with 24 samples.

Results

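The genes described here are 10 components of the Notch pathway, chosen by name: the ligands Jag1, Jag2 and Dll1, the receptors Notch1, Notch2 and Notch3, and the target genes Hes1, Hes5, Hey1 and Hey2. All 10 were listed among the 25190 genes of the organoid count table and among the 18440 genes of the inner ear count table. After a filter on low counts, 9 of them were tested in the organoids, where Hes5 did not pass the filter, and all 10 in the inner ear.

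Notch signalling passes between cells that touch. A ligand of the Jagged or Delta-like family on one cell binds a Notch receptor on its neighbour, and the receptor is then cut by an ADAM protease and by gamma-secretase. The freed intracellular domain enters the nucleus, joins the DNA-binding protein RBPJ and switches on repressors of the Hes and Hey families. In the developing cochlea, Jag1 and Notch1 act in setting out the sensory patch. Later, Dll1 and Jag2 on nascent hair cells keep their neighbours from becoming hair cells, through Hes and Hey genes in supporting cells.

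Bulk RNA sequencing was done on 24 mouse libraries. The organoids were grown from cochlear epithelium of mice at postnatal day 1 to 2 and formed 4 groups of 3 libraries. These were a control, TNF (tumour necrosis factor, an inflammatory cytokine), the knockdown of RBM25, and the knockdown with TNF. The knockdown was lentiviral, and RBM25 is a splicing factor that binds RNA. The titles of the samples call the knockdown a knockout, and the protocol's word is used here. The sources used here do not give the strain of the organoid donors, the vector received by the control, or the dose and duration of TNF. The inner ear samples were the soft tissue inside the bony labyrinth of untreated wild-type male C57BL6/J mice aged 3, 11 and 20 months, with 4 mice per age.

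By the labels' protocol, which exempts no group, every organoid had been exposed to a Notch pathway inhibitor. After 8 to 10 days of expansion, the organoids were given 3 µM CHIR99021, which activates Wnt signalling, and 5 µM LY411575, a gamma-secretase inhibitor that blocks the cleavage of Notch receptors, for 7 to 8 days. Both were then replaced by EGF and bFGF, each at 10 ng/mL, for 9 to 10 days. The controls therefore carried this step as well, and no organoid group without it was analysed here. The sources used here do not give when TNF and the lentivirus were added relative to this step.

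Library totals were 33802411 to 37048422 counts in the organoids and 30599012 to 38451292 in the inner ear. The biological coefficient of variation, the spread between replicates beyond counting error, was 8.04% in the organoids and 19.8% in the inner ear. Nothing in the labels says that organoid replicates were separate cultures, so their p-values reflect the spread among these libraries alone, and that spread may be technical. Rbm25 stood at 142, 148 and 144 CPM (counts scaled to the size of each library) in the controls, at 150, 163 and 173 CPM with TNF, at 96.9, 94.2 and 92.7 CPM with the knockdown, and at 103, 122 and 108 CPM with both. The transcript fell with the knockdown, by 0.61 on the log2 scale (edgeR adjusted p = 1.01e-07), and was still present at the levels given. Markers of hair cells, supporting cells and epithelium were detected in every organoid library. Markers of vessels and macrophages were low but differed between the groups. The summed endothelial markers were 17.2 to 20 CPM in the controls, 15.4 to 20.8 CPM with TNF, 39.7 to 53.3 CPM with the knockdown and 33.4 to 48.5 CPM with both, mostly from Emcn, and Pecam1 and Tie1 did not pass the count filter. The summed macrophage markers were 0.0287 to 0.118, 1.75 to 2.38, 0.118 to 0.223 and 8.41 to 10.4 CPM in the same order, mostly from Aif1 with both treatments, and Csf1r did not pass the filter. The summed mesenchyme markers were 107 to 113, 69.7 to 282, 229 to 408 and 248 to 445 CPM in that order. Those of Schwann cells were 782 to 787, 531 to 670, 759 to 773 and 673 to 729 CPM. The summed pan-epithelial markers (Epcam, Cdh1, Krt8, Krt18 and Cldn6) were 2437 to 2474, 3144 to 3660, 2164 to 2372 and 2477 to 2875 CPM. Of these 5 markers, 4 rose and 0 fell with TNF, and 1 rose and 2 fell with the knockdown. The part of these cells in the levels of the Notch genes was not tested.

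The receptors and targets differed widely in level in control organoids. On the deposited FPKM scale, which corrects for gene length, Notch1 was the highest of the 10 genes at 53.3 ± 2.18 FPKM (SD, n = 3), ahead of Notch2 at 9.72 ± 0.47 and Hey1 at 9.58 ± 0.326 FPKM. Jag2 was the most abundant ligand at 7.17 ± 0.448 FPKM, whereas Jag1 stood at 1.85 ± 0.0168 and Dll1 at 1.68 ± 0.202 FPKM. Among the remaining genes, Hey2 reached 5.56 ± 0.194, Hes1 2.84 ± 0.0833 and Notch3 1.06 ± 0.0712 FPKM, and Hes5 was listed at 0. Notch1 kept the first place and Hes5 the last in all 4 groups. In the controls the ranges of Notch2 and Hey1 overlapped, and those of Jag1 and Dll1 were separated by a narrow gap.

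**Figure D1:**
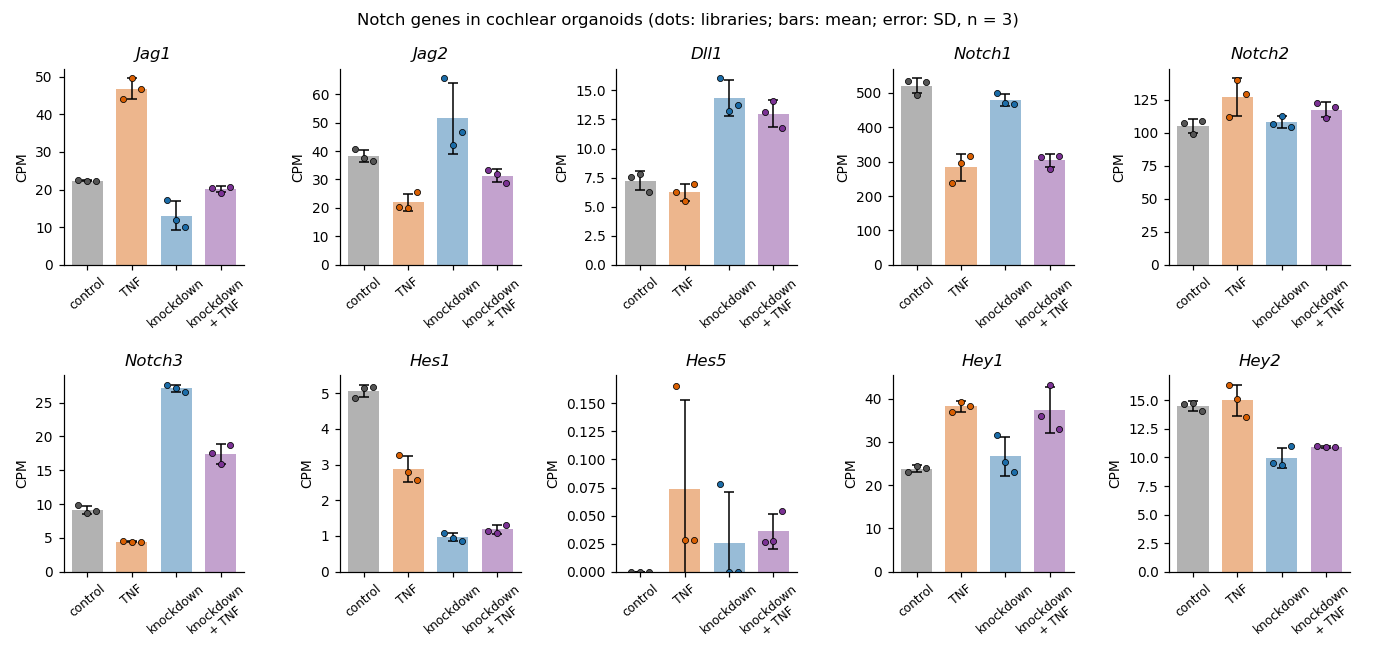
Level of each of the 10 Notch genes in cochlear organoids in CPM (vertical axes start at 0, with a scale per gene), with dots for libraries, bars for means and error bars for SD (n = 3 per group; the lower arm of the Hes5 bars is cut off at 0). Jag1 is highest with TNF (44.1 to 49.7 CPM), Notch3 is highest with the RBM25 knockdown (26.5 to 27.6 CPM), and Hes1 is highest in the controls (4.88 to 5.18 CPM).

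TNF changed the Notch genes in both directions. Jag1, Hey1 and Notch2 rose, and Jag2, Notch1, Notch3 and Hes1 fell, which makes 7 of the 9 genes tested (edgeR's quasi-likelihood test, adjusted p under 0.05). Across all 15888 genes tested, 47.5% passed in the same comparison, 23.3% higher and 24.2% lower. The median log2 fold change was -0.22 over the 9 Notch genes and -0.02 over all genes tested.

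The knockdown of RBM25 changed a partly different selection. Jag2, Dll1 and Notch3 rose, and Jag1, Hes1 and Hey2 fell, which makes 6 of 9, against a background of 52.6% of all genes tested (24.4% higher and 28.2% lower). That split of 3870 higher and 4488 lower genes turned on other scales, to 4220 and 3981 with DESeq2 size factors and to 4583 and 3490 with limma on log2(FPKM + 1). The median log2 fold change was 0.04 over the Notch genes and -0.03 over all genes. When the knockdown was compared with no knockdown among the TNF-treated organoids, which shares no library with the first comparison, 6 Notch genes passed against a background of 52.3% (25.4% higher and 26.9% lower). They were the same 6 genes, each with the same sign. The share of all genes called in both comparisons with the same sign was not computed. This agreement therefore cannot be called particular to the Notch genes. The medians in that comparison were -0.03 for the Notch genes and -0.01 for all genes.

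With the knockdown in both arms, TNF changed 5 of the 9 Notch genes, against a background of 44.8% (22.8% higher and 22% lower). Jag1 and Hey1 rose, and Jag2, Notch1 and Notch3 fell, each in the direction it took without the knockdown. The share of all genes with such agreement was not computed here either. The medians were 0.12 for the Notch genes and -0.01 for all genes. In each of the 4 comparisons, the genes that passed were the ones whose libraries did not overlap between the groups. The share of all genes without such overlap was not computed, so this separation adds no support to the calls. Shares of genes called were high in these libraries as a whole, and the description below rests on the size and direction for each gene.

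**Figure D2:**
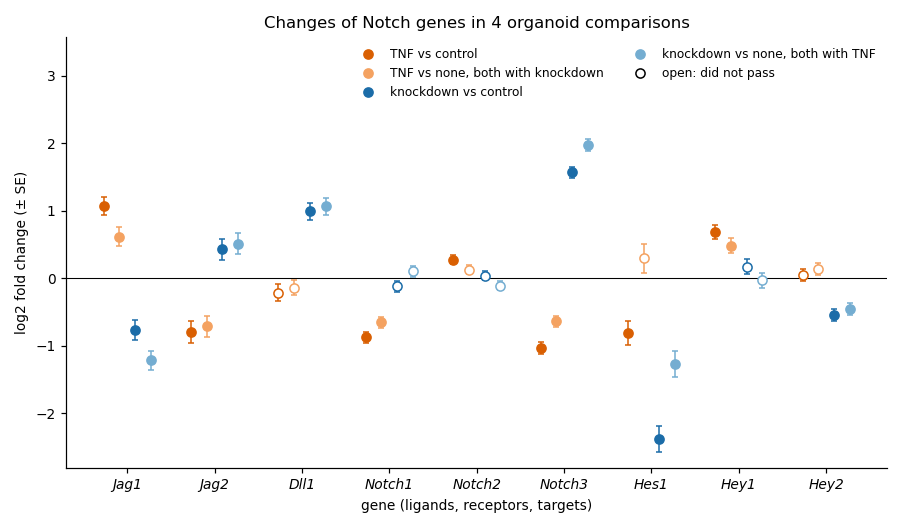
Fitted log2 fold change of the 9 tested Notch genes in 4 organoid comparisons, with error bars for the standard error and open circles for genes that did not pass an adjusted p of 0.05. Each pair of comparisons of 1 colour family lies close together for most genes, and Hes1 is the gene where the knockdown comparisons differ most (-2.38 without and -1.27 with TNF).

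Jag1 encodes the ligand that marks the prosensory region and later the supporting cells of the cochlea (mm10, chr2:137081451-137116520, minus strand). It stood at 22.5, 22.1 and 22.4 CPM in the controls, at 44.1, 49.7 and 46.7 CPM with TNF, at 17.4, 11.8 and 10.1 CPM with the knockdown, and at 20.4, 19.1 and 20.8 CPM with both. The order was TNF, control, both, knockdown, with no overlap between neighbouring groups. TNF raised it 2.1-fold (log2 change 1.07, SE 0.138, edgeR adjusted p = 3.69e-05), and the knockdown lowered it (log2 change -0.77, SE 0.145, edgeR adjusted p = 0.000704). With the knockdown in both arms, TNF raised Jag1 by 0.61 on the log2 scale (SE 0.145, edgeR adjusted p = 0.00417). With TNF in both arms, the knockdown changed it by -1.22 (SE 0.138, edgeR adjusted p = 1.05e-05). With both treatments, Jag1 was thus a little below the control level, and its libraries did not reach the control range.

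The spread of Jag1 among the knockdown libraries was wide, at 13.1 ± 3.8 CPM (SD, n = 3) against 22.3 ± 0.17 CPM in the controls. Replicate 1 was the highest of the 3 for Jag1, and also for Jag2, Dll1, Notch1, Notch3, Hes1 and Hey1. It was the highest for the summed hair cell markers too, at 713 CPM against 499 and 507 CPM in the other two. Its part in these results was measured by leaving it out, and all 6 knockdown calls remained.

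Jag2 encodes a ligand of nascent hair cells (chr12:112907803-112929812, minus strand). Its levels were 40.8, 37.5 and 36.6 CPM in the controls, 20.5, 20.1 and 25.4 CPM with TNF, 65.7, 42.2 and 46.5 CPM with the knockdown, and 33.3, 31.9 and 28.9 CPM with both. The order was knockdown, control, both, TNF, again with no overlap between neighbours, and differed from that of Jag1 in that the knockdown and TNF groups had changed places. TNF lowered Jag2 both without the knockdown (log2 change -0.80, SE 0.16, edgeR adjusted p = 0.00196) and with it (log2 change -0.72, SE 0.155, edgeR adjusted p = 0.00342).

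The rise of Jag2 with the knockdown was smaller, at 0.43 on the log2 scale (SE 0.153, edgeR adjusted p = 0.0382), and at 0.51 among the TNF-treated organoids (SE 0.16, edgeR adjusted p = 0.0211). These 2 calls depended on single libraries. Without control replicate 1, 2 or 3, the first had an adjusted p of 0.0548, 0.0957 or 0.102, and without replicate 2 of both treatments 0.0532. Without TNF replicate 1 or 2, or replicate 1 or 2 of both treatments, the second had 0.0919, 0.0852, 0.0737 or 0.0675.

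Dll1 encodes the Delta-like ligand through which nascent hair cells inhibit their neighbours (chr17:15367354-15376932, minus strand). It stood at 7.57, 7.85 and 6.3 CPM in the controls and at 6.29, 5.48 and 6.92 CPM with TNF. Its levels were 16.1, 13.2 and 13.8 CPM with the knockdown and 13.2, 14.1 and 11.8 CPM with both treatments. The 6 knockdown libraries thus lay above the 6 libraries without it, and TNF left the ranges overlapping on either background. The knockdown raised Dll1 1.98-fold (log2 change 0.99, SE 0.12, edgeR adjusted p = 1.43e-06) and, among TNF-treated organoids, 2.09-fold (log2 change 1.06, SE 0.121, edgeR adjusted p = 7.54e-07). The effect of TNF did not pass the test, at -0.22 on the log2 scale with a 95% interval from -0.48 to 0.04 (edgeR adjusted p = 0.164).

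The 2 ligands Jag2 and Dll1 rose with the knockdown, and most hair cell markers rose in the same comparison. Of 8 hair cell markers tested, 6 rose and 1 fell with the knockdown. Pou4f3, a transcription factor of hair cells, changed by 1.39 on the log2 scale (edgeR adjusted p = 4.3e-05), Myo7a, a hair cell myosin, by 1.18 (edgeR adjusted p = 0.00042), and Atoh1, which starts hair cell fate, by 0.93 (edgeR adjusted p = 0.00073). The summed hair cell markers ranged from 335 to 347 CPM in the controls, 288 to 326 CPM with TNF, 499 to 713 CPM with the knockdown, and 381 to 462 CPM with both. With both treatments this sum was above the control range, whereas Jag2 was below it, at 28.9 to 33.3 CPM against 36.6 to 40.8 CPM. The group means of Dll1 and Notch3 followed the order of the sum. In bulk RNA, more cells of a type and more RNA per cell cannot be told apart. The part of hair cell content in the levels of Jag2, Dll1 and Notch3 was not tested.

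Notch1 encodes the main receptor of the cochlear sensory epithelium (chr2:26457902-26503822, minus strand). Its levels were 536, 495 and 532 CPM in the controls, 239, 295 and 316 CPM with TNF, 498, 472 and 467 CPM with the knockdown, and 315, 280 and 316 CPM with both. All 6 TNF-treated libraries lay below all 6 others, and within each set of 6 the groups with and without the knockdown overlapped. TNF lowered Notch1 by 45.6% (log2 change -0.88, SE 0.0828, edgeR adjusted p = 4.99e-07), and by 36.6% among knockdown organoids (log2 change -0.66, SE 0.0825, edgeR adjusted p = 1.13e-05). The knockdown did not pass, at -0.12 (95% interval -0.29 to 0.05, edgeR adjusted p = 0.231) and, with TNF, at 0.10 (95% interval -0.07 to 0.27, edgeR adjusted p = 0.335).

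Notch2 encodes a broadly expressed receptor (chr3:98013538-98150367, plus strand). It was the steadiest of the receptors, at 108, 99 and 109 CPM in the controls, 112, 140 and 130 CPM with TNF, 107, 113 and 104 CPM with the knockdown, and 122, 111 and 120 CPM with both. The TNF and control groups were separated by a narrow gap. The rise with TNF was 1.21-fold (log2 change 0.27, SE 0.0689, edgeR adjusted p = 0.00337). TNF did not pass among knockdown organoids, at 0.12 (95% interval -0.02 to 0.27, edgeR adjusted p = 0.161). The difference between these 2 TNF effects did not pass either (-0.15, edgeR adjusted p = 0.353). Without TNF replicate 1, the lowest of its group, that difference passed (-0.27, edgeR adjusted p = 0.0357), and so did the knockdown among TNF-treated organoids (-0.21, edgeR adjusted p = 0.00765).

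Notch3 encodes a receptor best known from the mural cells of blood vessels (chr17:32120820-32166896, minus strand). It stood at 9.81, 8.69 and 8.92 CPM in the controls, 4.55, 4.44 and 4.34 CPM with TNF, 27.6, 27.2 and 26.5 CPM with the knockdown, and 17.6, 15.9 and 18.8 CPM with both. The 4 groups were fully separated, in the order knockdown, both, control, TNF. The knockdown raised Notch3 2.97-fold (log2 change 1.57, SE 0.0847, edgeR adjusted p = 3.18e-11) and 3.92-fold among TNF-treated organoids (log2 change 1.97, SE 0.0908, edgeR adjusted p = 5.2e-12). TNF lowered it by 51.3% (log2 change -1.04, SE 0.0934, edgeR adjusted p = 3.59e-08) and by 35.7% with the knockdown (log2 change -0.64, SE 0.0808, edgeR adjusted p = 3.37e-06). Of the 3 receptors, Notch3 had the largest change in both knockdown comparisons.

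Of 7 mural cell markers tested, Notch3 included, 2 rose (Notch3 and Abcc9) and 0 fell with the knockdown. Among TNF-treated organoids, 4 rose with the knockdown (Notch3, Abcc9, Acta2 and Myh11) and 1 fell (Rgs5). With TNF alone, 2 rose (Cspg4 and Rgs5) and 1 fell (Notch3). Of 6 endothelial markers tested, 4 rose with the knockdown and 5 with the knockdown among TNF-treated organoids, and 0 fell in either comparison. The summed mural cell markers without Notch3 were 7.37 to 8.27 CPM in the controls, 16.1 to 59.3 CPM with TNF, 7.26 to 17 CPM with the knockdown and 18 to 20.2 CPM with both. The sum was highest in TNF replicate 1, mostly from Rgs5 at 46.1 CPM, and that library did not stand out for Notch3. The same library was the highest TNF library for mesenchyme markers, at 282 CPM against 69.7 and 84 CPM in the other two. Without it, the fall of Notch3 and the 6 other changes called with TNF still passed. The part of mural and endothelial cell content in the level of Notch3 was not tested.

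The promoters of the targets Hes5 and Hey2 each held 2 copies of the motif read by RBPJ, and they are shown because no other Notch gene with a promoter entry had a copy. The motif searched was TGGGAA on both strands, in RefSeq promoters of 300 bases (250 before to 50 after the start, GRCm38.p6). It occurred at least once in 25.6% of 32851 promoters of that length and 2 or more times in 3.79%. Promoter entries were matched for 8 of the 10 genes, with 2 for Dll1, and not for Hes1 and Hey1. Capitals mark TGGGAA or its reverse complement in the sequences below, written in the direction of transcription (Hes5 at chr4:154960673-154960972, plus strand, and Hey2 at chr10:30842734-30843033, minus strand).
Hes5: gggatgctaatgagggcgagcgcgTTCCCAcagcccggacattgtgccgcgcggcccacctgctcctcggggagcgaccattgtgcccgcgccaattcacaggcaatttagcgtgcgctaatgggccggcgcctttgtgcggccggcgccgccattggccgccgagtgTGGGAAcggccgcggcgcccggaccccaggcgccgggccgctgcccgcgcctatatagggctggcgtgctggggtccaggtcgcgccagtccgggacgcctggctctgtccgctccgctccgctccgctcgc
Hey2: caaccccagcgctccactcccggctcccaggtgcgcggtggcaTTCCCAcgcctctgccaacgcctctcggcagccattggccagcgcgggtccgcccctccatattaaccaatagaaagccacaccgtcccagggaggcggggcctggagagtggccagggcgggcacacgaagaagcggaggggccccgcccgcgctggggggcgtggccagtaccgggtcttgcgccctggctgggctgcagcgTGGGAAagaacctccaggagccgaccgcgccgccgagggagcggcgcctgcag
In Hes5 the copies began 226 and 82 bases before the start, and in Hey2 207 and 3 bases before it. In each case the first lay on the opposite strand and the second on the strand shown. The N-box CACNAG, a site of Hes proteins, was found in the promoters of Notch1 (3 matches), Notch3 (2), Notch2 (1) and Dll1 (1), and in 42.5% of all promoters. The NF-kB motif was found in those of Notch2 and Dll1 and in 8.46% of all promoters. In Hes5 and Hey2 no other motif searched overlapped the copies shown. These matches describe the letters in the window only.

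Hes1 encodes a repressor that Notch signalling induces in supporting cells and progenitors (chr16:30065357-30067796, plus strand). It was low in every organoid library, at 4.88, 5.14 and 5.18 CPM in the controls, 3.26, 2.8 and 2.56 CPM with TNF, 1.09, 0.947 and 0.855 CPM with the knockdown, and 1.15, 1.08 and 1.32 CPM with both. The corresponding raw counts were 170 to 178, 92 to 118, 29 to 42, and 40 to 49. The groups were separate in the order control, TNF, then the knockdown groups, which overlapped with each other. Hes1 fell 5.22-fold with the knockdown (log2 change -2.38, SE 0.195, edgeR adjusted p = 8.23e-09), the largest change of any Notch gene in these comparisons. Among TNF-treated organoids the knockdown lowered it 2.42-fold (log2 change -1.27, SE 0.192, edgeR adjusted p = 2.09e-05).

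TNF lowered Hes1 by 43.3% without the knockdown (log2 change -0.82, SE 0.177, edgeR adjusted p = 0.000842). With the knockdown it did not pass (0.29, 95% interval -0.15 to 0.73, edgeR adjusted p = 0.275). The test of the difference between these 2 effects, the interaction of TNF and knockdown, passed for Hes1 at 1.11 on the log2 scale (SE 0.273, edgeR adjusted p = 0.0124). The combined level was therefore higher than the sum of the separate log2 changes would give.

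Hes5 encodes a Notch-induced repressor that marks supporting cell types in the newborn cochlea (chr4:154960626-154962372, plus strand). Its counts were 0, 0 and 0 in the controls, 6, 1 and 1 with TNF, 3, 0 and 0 with the knockdown, and 1, 1 and 2 with both. A total of 0 in the controls allows a level of up to 0.0281 CPM. It did not pass the count filter and has no test here. Without the filter, edgeR called it higher with TNF (adjusted p = 0.0463) on 8 counts, of which 6 were in 1 library.

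Hey1 and Hey2 encode repressors related to the Hes family, and they moved under different treatments. Hey1 (chr3:8663359-8667038, minus strand) stood at 22.9, 24.5 and 23.9 CPM in the controls, 36.9, 39.3 and 38.4 CPM with TNF, 31.7, 25.4 and 23.1 CPM with the knockdown, and 35.9, 43.2 and 32.9 CPM with both. All TNF-treated libraries were above all others. TNF raised Hey1 1.61-fold (log2 change 0.68, SE 0.11, edgeR adjusted p = 0.000133), and 1.4-fold with the knockdown (log2 change 0.48, SE 0.109, edgeR adjusted p = 0.0023). The knockdown did not pass for Hey1, at 0.17 (95% interval -0.06 to 0.40, edgeR adjusted p = 0.221) and, with TNF, at -0.03 (95% interval -0.26 to 0.19, edgeR adjusted p = 0.817).

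Hey2, which in the cochlea helps to keep pillar cells from turning into hair cells (chr10:30832359-30842783, minus strand), showed the other selection. It stood at 14.7, 14.8 and 14 CPM in the controls, 16.3, 15.1 and 13.6 CPM with TNF, 9.52, 9.36 and 11 CPM with the knockdown, and 11, 10.9 and 10.9 CPM with both. The 6 knockdown libraries were below the 6 others. The knockdown lowered Hey2 by 31.5% (SE of the log2 change 0.0926, edgeR adjusted p = 7.03e-05), and by 27.1% among TNF-treated organoids (SE 0.0916, edgeR adjusted p = 0.000395). TNF did not pass, at 0.05 (95% interval -0.14 to 0.24, edgeR adjusted p = 0.702) and, with the knockdown, at 0.14 (95% interval -0.06 to 0.33, edgeR adjusted p = 0.255).

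Of 9 supporting cell markers, 1 rose and 4 fell with TNF, and 2 rose and 4 fell with the knockdown. Their summed level ranged from 6474 to 6749 CPM in the controls, 2946 to 3188 CPM with TNF, 3676 to 3967 CPM with the knockdown and 2351 to 2507 CPM with both, and most of the sum was Otog, a gene of the matrix over the sensory epithelium. Sox2, a transcription factor of supporting cells and progenitors, did not follow the sum: it stood at 46.2 ± 0.9 CPM in the controls, 27.3 ± 2.66 CPM with TNF, 67.5 ± 3.33 CPM with the knockdown and 41.4 ± 2.71 CPM with both. The part of supporting cell content in the levels of Jag1, Notch1, Hes1 and Hey2 was not tested.

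The interaction passed for Hes1 and Notch3, 2 of 9 genes, against a background of 12.3% of all genes tested (7.54% above and 4.81% below 0, or 1198 and 764 genes, against 938 and 1026 with no count filter). For Notch3 it was 0.40 (SE 0.123, edgeR adjusted p = 0.0398), that is, TNF lowered Notch3 less with the knockdown than without. This call was lost without any one of 10 of the 12 libraries (adjusted p 0.0616 to 0.149) and changed sign on the log2(FPKM + 1) scale, where it was -0.03 (limma adjusted p = 0.867). Hes1 passed under every alternative tried, with adjusted p from 0.00126 to 0.0438. For Jag1 the interaction was -0.45 and did not pass (edgeR adjusted p = 0.17), but it passed without knockdown replicate 3 (-0.61, edgeR adjusted p = 0.0172).

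Other Notch pathway genes, 46 in all and 44 of them tested, were read from a list of ligands and receptors, modifying enzymes, proteases, nuclear partners, regulators of turnover and further targets. With TNF, 6 rose and 21 fell, against the background of 47.5% of all genes given above (23.3% higher and 24.2% lower), and their median log2 fold change was -0.23 against -0.02 for all genes. Of the 8 genes of the nuclear complex, 1 rose and 7 fell. Of 9 proteases, 2 rose and 4 fell, and of 8 regulators of turnover, 1 rose and 4 fell. Of 5 enzymes that add sugars, 2 rose and 2 fell, and of 6 other ligands and receptors, 0 passed. Of 4 genes of ligand uptake and 4 further targets tested, 0 rose and 2 fell in each list. Maml3, a coactivator that binds the Notch complex, went from 64 ± 0.895 to 47.1 ± 1.8 CPM (log2 change -0.44, edgeR adjusted p = 1.42e-06).

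The protease Adam17, which cuts membrane proteins including Notch receptors and TNF, rose with TNF from 63.9 ± 1.92 to 107 ± 2.93 CPM (log2 change 0.74, edgeR adjusted p = 8.99e-10). Numbl, of the Numb family of Notch inhibitors, fell from 36.4 ± 1.08 to 19 ± 1.6 CPM (log2 change -0.94, edgeR adjusted p = 7.95e-10). Mib2 and Neurl1b, ubiquitin ligases that promote the uptake of ligands, changed by -0.46 and -1.24 (edgeR adjusted p = 4.59e-06 and 6.35e-06). Among knockdown organoids, TNF raised 5 and lowered 19 of the 44 genes, against a background of 44.8%. There the changes were -0.66 for Numbl, 0.50 for Adam17, -0.50 for Maml3, -0.53 for the coactivator Maml2 and -1.11 for Neurl1b, with edgeR adjusted p of 2.15e-05 or less.

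With the knockdown, 20 of the 44 genes rose and 11 fell, against a background of 52.6% (24.4% higher and 28.2% lower), with a median of 0.11 against -0.03 for all genes. Of the 6 other ligands and receptors, 5 rose, and of the 5 enzymes that add sugars to Notch receptors, 4 rose. The remaining lists were mixed. Of 8 regulators of turnover, 2 rose and 4 fell, and of 9 proteases, 3 rose and 2 fell. Of 8 nuclear complex genes, 3 rose and 3 fell. Of 4 genes of ligand uptake, 2 rose and 1 fell, and of 4 further targets tested, 1 rose and 1 fell. Lfng, a Fringe enzyme that changes which ligands a receptor answers to, went from 3.15 ± 0.261 to 7.49 ± 0.757 CPM (log2 change 1.25, edgeR adjusted p = 3.22e-07). Dner, a neuronal transmembrane protein reported to bind Notch, went from 3.18 ± 0.826 to 8.5 ± 0.591 CPM (log2 change 1.42, edgeR adjusted p = 1.11e-06). Of 5 neuronal markers tested, 4 rose in the same comparison, from a summed 29.7 to 32.3 CPM in the controls to 68.4 to 103 CPM, and their part in the level of Dner was not tested.

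Among components of gamma-secretase, Psen2 fell with the knockdown from 27.1 ± 0.385 to 15.4 ± 1.43 CPM (log2 change -0.81, edgeR adjusted p = 5.74e-07) and Aph1b rose from 65 ± 2.44 to 91.5 ± 1.43 CPM (log2 change 0.49, edgeR adjusted p = 4.33e-08). Fbxw7, the ubiquitin ligase subunit that marks the Notch intracellular domain for breakdown, fell from 54.5 ± 1.96 to 36.1 ± 0.696 CPM (log2 change -0.60, edgeR adjusted p = 1.7e-08). Among TNF-treated organoids the knockdown raised 13 and lowered 7 of the 44, a smaller share than the background of 52.3%. Fbxw7 changed by -0.64, Psen2 by -0.51, Lfng by 1.31, the Fringe gene Rfng by 0.64 and Numbl by 0.48 there, with edgeR adjusted p of 0.000129 or less. The interaction passed for 6 of the 44, against a background of 12.3%: Mib2 (0.31), Rfng (0.36) and Dtx3 (0.25, named after its value was seen) above 0, and Aph1b (-0.25), Adam17 (-0.24) and Itch, a ubiquitin ligase (-0.23), below it, with edgeR adjusted p of 0.0142 to 0.0476.

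**Figure D3:**
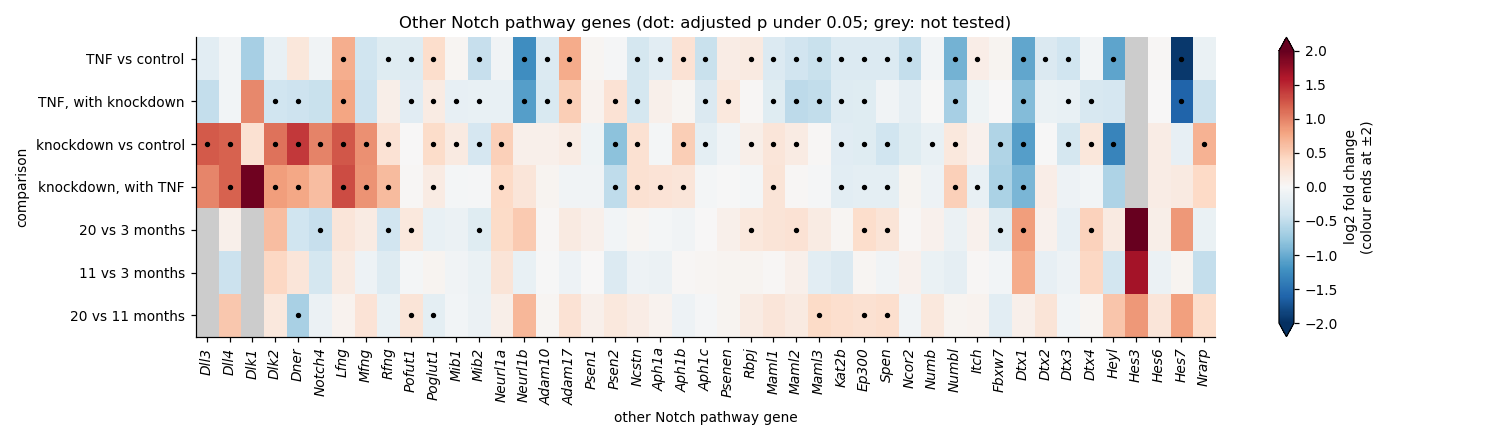
Fitted log2 fold change of the other Notch pathway genes (columns) in 7 comparisons (rows), as colour that ends at ±2, with a dot where the adjusted p was under 0.05 and grey where the gene was not tested. The upper TNF rows are mostly blue (21 of 44 genes lower), the knockdown row has more red (20 of 44 higher), and the row of 11 against 3 months has no dot.

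As a description of pattern, each of 3 Notch genes was set beside all genes with a mean of at least 5 CPM over the 12 organoid libraries, by Pearson's correlation of log2(CPM + 1). The libraries share their groups, so the values mostly follow the 4 group levels. For Jag1 the closest were Noc3l (0.983), Adamts19 (0.982) and Gm16576 (0.981). For Notch1 they were Zfp36l2 (0.989), Iqce (0.987) and Zer1 (0.986), and for Hes1 Tmem221 (0.991), Abhd16a (0.99) and Mprip (0.989).

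In the inner ear, 2 receptors and 2 ligands passed in at least 1 comparison of ages. Notch1 and Notch2 were higher and Jag2 was lower at 20 than at 3 months, which makes 3 of 10 genes, against a background of 22.7% of the 15525 genes tested (12% higher and 10.7% lower). At 11 months, 1 gene, Notch2, was higher than at 3 months, against a background of 1.56% (0.979% higher and 0.58% lower). Between 11 and 20 months, Jag1 and Notch1 rose, 2 of 10, against a background of 15.8% (7.87% higher and 7.9% lower). Of the 4 targets, 0 passed in these 3 comparisons by edgeR's test, 0 had an unadjusted p under 0.05, and 0 passed with the DESeq2 test. The 3 comparisons share their groups in pairs, so the values for a gene are not independent of each other.

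The median log2 fold change of the 10 genes was 0.24 from 3 to 20 months, -0.13 from 3 to 11 months and 0.13 from 11 to 20 months. The medians over all genes tested were 0.01, -0.01 and 0.03. On the FPKM scale at 3 months, Hey2 was the highest of the 10 genes at 14.3 ± 1.15 FPKM (SD, n = 4), followed by Jag2 at 11.9 ± 1.31, Hey1 at 9.49 ± 0.36 and Notch1 at 8.58 ± 0.761 FPKM. Notch2 stood at 8.47 ± 0.652, Hes1 at 7.88 ± 0.932, Notch3 at 3.62 ± 0.87, Jag1 at 3.18 ± 0.442 and Dll1 at 0.807 ± 0.222 FPKM. Hes5 was lowest at 0.125 ± 0.0619 FPKM, and it was the lowest of the 10 at every age.

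Replicate 3 of 20 months stood apart from the others of its age, with 32.9 CPM of summed markers of mucosal epithelium against 522 to 1016 CPM. This sum was 63.7 to 443 CPM at 3 months and 36.4 to 61.4 CPM at 11 months. Replicate 3 was thus close to the mice of 11 months, and the others of its age were above all of those. The part of mucosal content in the levels of the Notch genes was not tested. Replicate 3 was also the lowest of its age for Jag1, Jag2, Notch1, Notch3 and Hes1. Without it, 4 Notch genes passed at 20 against 3 months, the same 3 and Jag1.

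**Figure D4:**
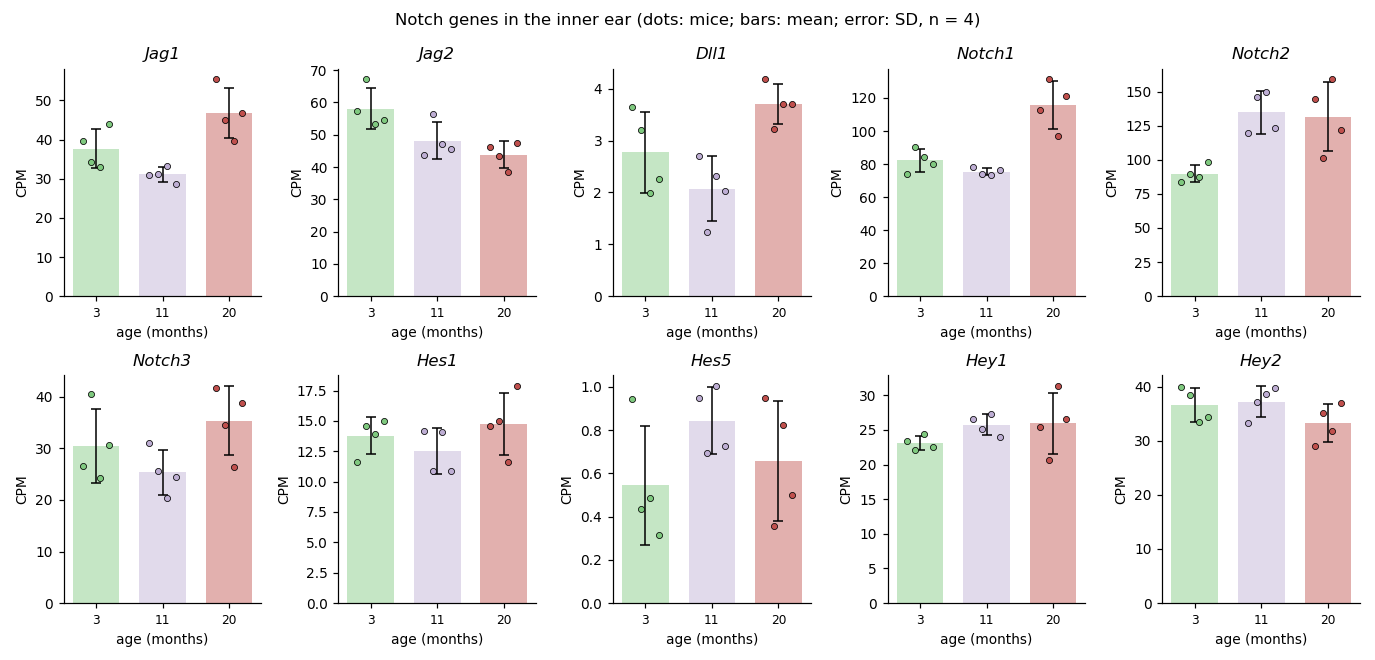
Level of each of the 10 Notch genes in the inner ear in CPM (vertical axes start at 0, with a scale per gene) at 3, 11 and 20 months, with dots for mice, bars for means and error bars for SD (n = 4 per age). Notch1 is separated at 20 months (97.1 to 131 CPM) from both younger ages, and Notch2 is lowest at 3 months (84 to 98.1 CPM).

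Notch1 stood at 73.9, 90.2, 84.6 and 80.2 CPM at 3 months, 78.3, 74.2, 73.1 and 76.3 CPM at 11 months, and 113, 131, 97.1 and 121 CPM at 20 months. Every mouse of 20 months was above every younger mouse, while 3 and 11 months overlapped. The rise was 1.41-fold from 3 to 20 months (log2 change 0.49, SE 0.0862, edgeR adjusted p = 0.00222) and 1.53-fold from 11 to 20 months (log2 change 0.62, SE 0.0863, edgeR adjusted p = 0.00444). From 3 to 11 months the change was -0.12 (95% interval -0.31 to 0.06, edgeR adjusted p = 0.473).

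Of 5 pan-epithelial markers, 3 (Cdh1, Krt8 and Krt18) were higher at 20 than at 11 months, where Notch1 and Jag1 rose, and 1 (Krt8) was higher at 20 than at 3 months. Their summed level ranged from 347 to 443 CPM at 3 months and 290 to 416 CPM at 11 months, and stood at 638, 789, 421 and 511 CPM at 20 months. Replicate 2 of 20 months was the highest of its age and replicate 3 the lowest, both for these markers and for Notch1. Replicates 1 and 4 were in opposite order, at 638 and 511 CPM for the markers and 113 and 121 CPM for Notch1. For Jag1, replicate 3 was also the lowest, but replicate 1 was the highest at 55.4 CPM, and replicate 2 stood at 45.1 CPM. The part of epithelial content in the levels of Notch1 and Jag1 was not tested.

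Notch2 had another course. It stood at 84, 89.8, 87.4 and 98.1 CPM at 3 months, 119, 146, 150 and 124 CPM at 11 months, and 144, 101, 159 and 122 CPM at 20 months. All mice of 3 months were below all older mice, and the older ages overlapped. It was 1.5-fold higher at 11 months (log2 change 0.58, SE 0.124, edgeR adjusted p = 0.0396) and 1.47-fold higher at 20 months (log2 change 0.55, SE 0.124, edgeR adjusted p = 0.00846), with a difference of -0.03 between the older ages (95% interval -0.30 to 0.23, edgeR adjusted p = 0.879). The call at 11 months was lost without any 1 of the 8 mice compared (adjusted p 0.0601 to 0.116), and without replicate 4 of 20 months (0.0555), which shares the estimate of spread. The call at 20 months was kept under every alternative tried.

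The summed markers of macrophages and of brain also differed between the ages. Of 8 macrophage markers, 8 were higher at 20 than at 3 months and 3 at 11 than at 3 months, and their summed level ranged from 129 to 163 CPM at 3 months, 247 to 283 CPM at 11 months and 231 to 428 CPM at 20 months. Replicate 2 was the lowest of the mice of 20 months both for these markers, at 231 CPM, and for Notch2, at 101 CPM. The summed brain markers ranged from 165 to 430 CPM at 3 months and 833 to 1020 CPM at 11 months, and stood at 677, 183, 1345 and 781 CPM at 20 months. Replicate 2 was again the lowest of that age and replicate 3 the highest, as for Notch2. The younger mice gave a mixed picture. At 3 months, replicate 1 was lowest for Notch2 and for the macrophage sum (129 CPM) but highest for the brain sum (430 CPM). Replicate 4 of that age was highest for Notch2 and lowest for the brain sum (165 CPM). At 11 months, replicate 1 was lowest for Notch2 (119 CPM) but highest for the macrophage sum (283 CPM). Replicate 3 of that age was highest for Notch2 and for the brain sum. Of 5 brain markers tested, 1, Calb1, was higher in both comparisons with 3 months, and Pcp2 and Gabra6 did not pass the filter. The part of macrophage and brain content in the level of Notch2 was not tested.

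Notch3 stood at 26.6, 40.5, 24.3 and 30.6 CPM at 3 months, 31, 25.6, 20.4 and 24.5 CPM at 11 months, and 41.8, 34.6, 26.4 and 38.8 CPM at 20 months. The ages overlapped, and no comparison passed. The change from 11 to 20 months was 0.48 (95% interval 0.09 to 0.87, edgeR adjusted p = 0.0876). It passed with the DESeq2 test (adjusted p = 0.0479) and without replicate 3 of 20 months (edgeR adjusted p = 0.0262). The summed mural cell markers without Notch3 were 355 to 586 CPM at 3 months, 362 to 448 CPM at 11 months and 399 to 750 CPM at 20 months. Replicate 2 of 3 months and replicate 1 of 20 months were the highest of their ages for both Notch3 and these markers, and the part of mural cell content in the level of Notch3 was not tested.

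Among the ligands, Jag1 stood at 39.7, 34.2, 33 and 43.9 CPM at 3 months, 31.1, 31.2, 33.4 and 28.8 CPM at 11 months, and 55.4, 45.1, 39.8 and 46.9 CPM at 20 months. The oldest mice were all above those of 11 months and overlapped with those of 3 months. Jag1 rose 1.5-fold from 11 to 20 months (log2 change 0.59, SE 0.109, edgeR adjusted p = 0.009). From 3 to 20 months the change of 0.31 (95% interval 0.08 to 0.55) missed the threshold (edgeR adjusted p = 0.0545). It passed with the DESeq2 test (adjusted p = 0.0401), without replicate 4 of 3 months (edgeR adjusted p = 0.0291) and without replicate 3 of 20 months (edgeR adjusted p = 0.0205).

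Jag2 stood at 57.4, 67.1, 53.3 and 54.5 CPM at 3 months, 43.7, 56.5, 47 and 45.5 CPM at 11 months, and 46.3, 43.3, 38.4 and 47.5 CPM at 20 months. It was the one Notch gene that fell with age, by 24.5% from 3 to 20 months (SE of the log2 change 0.0994, edgeR adjusted p = 0.0124), with no overlap between those ages. The intermediate age overlapped with both, at -0.27 against 3 months (95% interval -0.48 to -0.06, edgeR adjusted p = 0.172) and at -0.13 between 11 and 20 months (edgeR adjusted p = 0.371). Summed hair cell markers ranged from 833 to 1048 CPM at 3 months, 852 to 924 CPM at 11 months and 704 to 868 CPM at 20 months. The part of hair cell content in the level of Jag2 in the ear was not tested.

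Dll1 was low in the ear, at 3.65, 3.2, 2 and 2.26 CPM at 3 months, 2.7, 1.24, 2.32 and 2.04 CPM at 11 months, and 4.18, 3.23, 3.7 and 3.71 CPM at 20 months. Mice of 20 months were all above those of 11 months, yet the change of 0.83 (95% interval 0.25 to 1.41) missed the threshold (edgeR adjusted p = 0.0514). It passed with the DESeq2 test (adjusted p = 0.0212) and with limma on log2(FPKM + 1) and log2(FPKM + 0.1) (adjusted p = 0.0266 and 0.034). It also passed without replicate 1 of 11 months (edgeR adjusted p = 0.047).

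The targets overlapped between ages. Hes1 ranged from 11.6 to 15 CPM at 3 months, 10.8 to 14.1 CPM at 11 months and 11.6 to 17.9 CPM at 20 months, with a change of 0.10 from 3 to 20 months (95% interval -0.21 to 0.41, edgeR adjusted p = 0.658). Hey1 ranged from 22.1 to 24.3, 23.9 to 27.4 and 20.6 to 31.3 CPM at the 3 ages, with a change of 0.17 (95% interval -0.06 to 0.40, edgeR adjusted p = 0.271). Hey2 ranged from 33.4 to 40, 33.2 to 39.8 and 29 to 37 CPM, with a change of -0.14 (95% interval -0.33 to 0.06, edgeR adjusted p = 0.301).

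Hes5 was detected in every ear library but stayed at or below 1 CPM, at 0.315 to 0.943 CPM at 3 months, 0.696 to 1 CPM at 11 months and 0.355 to 0.949 CPM at 20 months. Its change from 3 to 20 months was 0.27, with a 95% interval from -0.71 to 1.25 (edgeR adjusted p = 0.7).

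**Figure D5:**
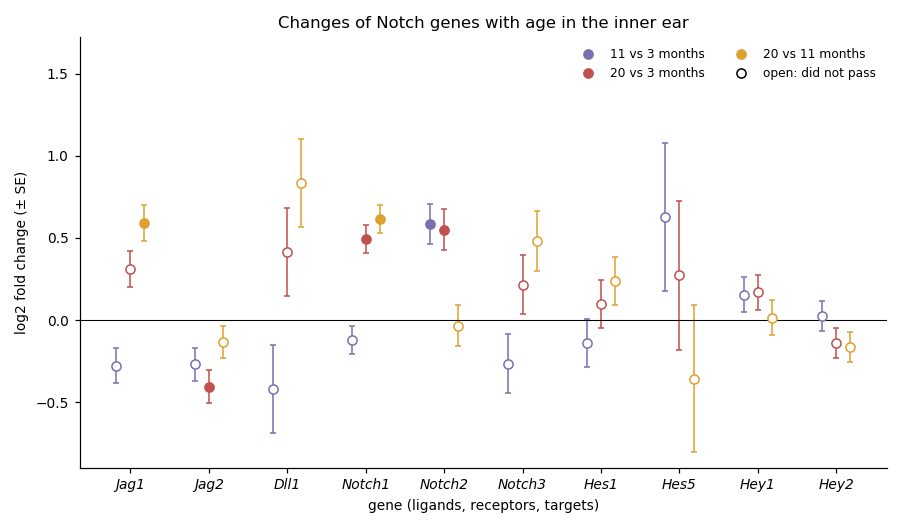
Fitted log2 fold change of the 10 Notch genes between ages of the inner ear, with error bars for the standard error and open circles for genes that did not pass an adjusted p of 0.05. Filled circles are Notch1 and Jag1 at 20 against 11 months (0.62 and 0.59), Notch1, Notch2 and Jag2 at 20 against 3 months (0.49, 0.55 and -0.40), and Notch2 at 11 against 3 months (0.58).

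Of the other Notch pathway genes, 43 were tested in the ear. From 3 to 20 months, 7 rose and 4 fell, against a background of 22.7% of all genes (12% higher and 10.7% lower), with a median log2 fold change of 0.11 against 0.01 for all genes. Within the nuclear complex, 4 of 8 genes rose and 0 fell, among them the DNA-binding partner Rbpj, from 54.8 ± 3.15 to 63.8 ± 2.82 CPM (log2 change 0.22, edgeR adjusted p = 0.0159), the acetyltransferase Ep300, from 102 ± 2.83 to 129 ± 11.7 CPM (log2 change 0.35, edgeR adjusted p = 0.00306), and Maml2 (log2 change 0.28, edgeR adjusted p = 0.02). Rfng fell from 49.2 ± 2.35 to 37.6 ± 3.3 CPM (log2 change -0.39, edgeR adjusted p = 0.00302), and Dtx4, of the Deltex family of Notch regulators, rose from 16.7 ± 1.18 to 22.9 ± 2.74 CPM (log2 change 0.46, edgeR adjusted p = 0.00645).

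From 11 to 20 months 4 of the 43 genes rose and 2 fell, against a background of 15.8%. Ep300 changed by 0.31, the corepressor Spen by 0.33 and the fucosyltransferase Pofut1 by 0.26, while Dner changed by -0.64 and the glucosyltransferase Poglut1 by -0.19, with edgeR adjusted p of 0.0123 to 0.0385. Neuronal markers summed to 8977 to 11743 CPM at 3 months, 10013 to 11347 CPM at 11 months and 5904 to 8498 CPM at 20 months, and their part in the level of Dner was not tested. From 3 to 11 months edgeR called 0 of the 43 genes, against a background of 1.56%, with 7 at an unadjusted p under 0.05, and the DESeq2 test called 2.

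Reads could not be assigned with certainty where another gene overlaps an exon, because the sources used here do not say whether counting used strand. Such overlaps in the GENCODE annotation covered 1389 exonic bases of Notch1, 867 of Dll1, 541 of Notch2, 488 of Notch3 and 433 of Hes5, and none of Jag1, Jag2, Hes1, Hey1 or Hey2.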

How the data were processed

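RNA from 12 organoid and 12 inner ear libraries (TruSeq v2 kit, Illumina HiSeq instrument, per the labels' protocols) was deposited as tables of raw whole-number counts, which the authors did not normalize, and as tables of FPKM, which the authors scaled to gene length and depth. Per the submitters' processing notes, the mm10 build was used with Trimmomatic, HISAT2, HTSeq and DESeq2. The sources used here do not give their versions or settings. Samples were grouped by their titles.

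Each count table was fitted whole with edgeR 4.0.16 in R 4.3.3: TMM factors, filterByExpr (15888 organoid and 15525 ear genes kept), 1 coefficient per group, and the robust quasi-likelihood F-test, two-sided, for 8 comparisons. Standard errors were taken from the F statistic, and 95% intervals from the t distribution. Benjamini-Hochberg adjustment covered all genes tested, and the threshold was 0.05. The interaction subtracts the TNF effect in organoids without the knockdown from that in organoids with it. CPM uses the TMM-scaled library size.

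The alternatives were DESeq2 size factors, no filter, the DESeq2 1.42.0 Wald test, only the groups compared, a replicate block, limma 3.58.1 on log2(FPKM + 1) and log2(FPKM + 0.1), and each library left out. The scripts were tested on simulated data with 200 changed genes in 1 group, of 15888 organoid or 15525 ear genes. This is a far smaller share than was called in the 2 real comparisons (47.5% and 22.7%). The rates that follow hold for the simulated setting only. For TNF against control, 52.2%, 71.6% and 89.4% of changes of 1.5-fold, 2-fold and 4-fold were recovered, and 7.79% of calls were false. For 20 against 3 months, the values were 58.2%, 65.7% and 81.8%, and 4.2% of calls were false. Replicates differed beyond sampling noise (chi-square over degrees of freedom 4.54 to 34.5 in organoids and 16 to 86.9 in ears). A count of 0 was read as up to 3 counts over the group, for counting error only.

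The Notch genes and all lists were chosen with earlier results of these data known. Named were the 10 Notch genes in every comparison, up to 5 other pathway genes per comparison with the smallest p among those that passed, Rbm25, and the 3 genes most correlated with Jag1, Notch1 and Hes1. Coordinates and promoters are from RefSeq (GRCm38.p6, the mm10 assembly) and exon overlaps from GENCODE vM21. Figures were drawn with matplotlib 3.10.9.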

Additional observations from a re-analysis of the deposited data

Results flagged for a closer look

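The TNF effect differed between organoids with and without the RBM25 knockdown for Hes1 and Notch3, by the test of that difference in edgeR's fit over all 15888 genes tested, in which 12.3% of genes passed. For Hes1 the difference was 1.11 on the log2 scale (SE 0.273, adjusted p = 0.0124): TNF changed it by -0.82 without the knockdown and by 0.29 with it. For Notch3 the difference was 0.40 (SE 0.123, adjusted p = 0.0398), from -1.04 without and -0.64 with the knockdown. Raw counts of Hes1 in the knockdown groups were 29 to 49 per library. Among the 30 sets of 4 mice given by the 10 Notch genes at 3 ages, 0 held a mouse that stood apart from the rest of its set, where chance alone gives about 1 in 20.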

How the results depend on the processing

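Of 32 changes of Notch genes that passed, 28 kept their direction and passed under every alternative run for them. The others were the 2 rises of Jag2 with the knockdown (adjusted p up to 0.115 and 0.0919), Notch2 at 11 against 3 months (up to 0.116) and the Notch3 interaction (up to 0.867), which turned to -0.0278 with limma on log2(FPKM + 1). The cause was not tested. The number of Notch genes called for the interaction moved from 2 to 1 with DESeq2 size factors, no filter, the DESeq2 test, the replicate block and limma on log2(FPKM + 1) and log2(FPKM + 0.1), and was 1 to 2 with a library left out. At 11 against 3 months it moved from 1 to 0 with the replicate block and limma on log2(FPKM + 1), and was 0 to 1 with a library left out. At 20 against 11 months it moved from 2 to 4 with the DESeq2 test. It was 3 there with the replicate block and with limma on either FPKM scale, and 2 to 3 with a library left out. With a library left out it was 7 for TNF (8 with no filter, which adds Hes5), 5 to 6 for each knockdown comparison, 5 for TNF with the knockdown and 3 to 4 for 20 against 3 months. Counts with log2(FPKM + 0.1) were added after seeing the data. The interaction cannot be fitted on fewer groups.

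Sign changes were otherwise seen only for changes that had not passed and lay near 0. Hey1 for the knockdown among TNF-treated organoids was 0.00075 and 0.000306 with limma on log2(FPKM + 1) and log2(FPKM + 0.1), and Hey1 at 20 against 11 months was -0.00500 with only the groups compared.
With a library left out, the ranges were -0.00638 to 0.0671 for Notch2 and the knockdown, and -0.0176 to 0.181 for Notch1 and -0.15 to 0.0423 for Hey1 with the knockdown among TNF-treated organoids. For the interaction they were -0.0427 to 0.272 for Jag2, -0.0403 to 0.165 for Dll1 and -0.00862 to 0.163 for Hey2. At 20 against 3 months the range was -0.00665 to 0.198 for Hes1, and at 20 against 11 months -0.137 to 0.0746 for Notch2 and -0.0888 to 0.11 for Hey1.

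Whether replicate numbers pair the samples could not be told from correlations of deviations, because the ranges overlap. Same-numbered libraries correlated at -0.116 to 0.292 over 18 organoid pairs and -0.345 to 0.371 over 12 ear pairs. Different-numbered libraries correlated at -0.272 to 0.101 over 36 organoid pairs and -0.338 to 0.303 over 36 ear pairs. The highest organoid values joined same-numbered control and knockdown libraries, at 0.292 for replicate 1 and 0.26 for replicate 3. The replicate block ended the calls of Notch2 at 11 months (adjusted p = 0.0704) and of the Notch3 interaction (adjusted p = 0.0511). It added Notch3 at 20 against 11 months (adjusted p = 0.0471).

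Over all genes, the calls at 11 against 3 months (152 higher and 90 lower) ranged from 29 and 9 without replicate 3 of 11 months to 585 and 446 with the DESeq2 test. At 20 against 11 months they fell from 1222 and 1226 to as few as 334 and 453 without replicate 3 of 11 months. Without replicate 1 of 20 months, those at 20 against 3 months went from 1868 and 1657 to 1221 and 990. The interaction went from 1198 and 764 to 789 and 432 without control replicate 1 and to 637 and 653 without replicate 1 of both treatments. For the knockdown, the 3870 higher and 4488 lower genes became 4220 and 3981 with DESeq2 size factors, 4361 and 3681 with no filter, 4212 and 3950 with the DESeq2 test, 4271 and 4243 with only the groups compared, and 4583 and 3490 or 4631 and 3498 with limma on log2(FPKM + 1) or log2(FPKM + 0.1). The interaction became 938 and 1026 with no filter. Low counts limit Hes5 in both tables and Hes1 in the knockdown groups.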
